A study of Mus musculus with 8 samples.

Results

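The carbonic anhydrase genes of mouse gastrocnemius muscle were examined site by site in 3′-end sequencing of AMPKα1 and AMPKα2 knockout (KO) and wild-type (WT) mice. The family list held 4 genes, Car3, Car2, Car4 and Car14. Car3, Car4 and Car14 were 3 of 15349 genes with reads and held 18 of 56483 alternative polyadenylation sites (APSs), namely 12 for Car3, 1 for Car4 and 5 for Car14. Car2 was not analysed here. Every APS assigned to a member was taken, reads were summed per gene, and the share of reads at the terminal site was set against internal sites. Car3 had been picked on its KO-against-WT read counts at single APSs in these same libraries, so its KO and WT values, and the terminal shares, are given as a description with no test.

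WTTS-seq, a method that captures and sequences the ends of poly(A) transcripts, was run on 2 male mice in each of 4 groups, AMPKα1 KO, AMPKα1 WT, AMPKα2 KO and AMPKα2 WT. The α subunit is the catalytic part of AMP-activated protein kinase, a sensor of cellular energy. KO mice were homozygous for an allele that lacks DNA coding for part of the catalytic domain, and the sources used here name no other allele or agent. The KO mice were about 6 weeks old in the AMPKα1 model and about 8 weeks old in the AMPKα2 model, and the sources used here gave no age for the WT mice. The study's methods name the strain 129S2/SvPas for the AMPKα1 KO mice and C57BL/6 for the AMPKα2 KO mice, whereas the labels of every library name C57BL/6. Library set went with the model, as did age as far as given and strain by the methods, though not by the labels. An effect of the gene therefore cannot be told apart from these in a difference between the 2 models.

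Carbonic anhydrases convert carbon dioxide and water into bicarbonate and a proton, and back. In muscle they speed the removal of carbon dioxide from working fibres and the buffering of acid. Car3 is a cytosolic enzyme of low catalytic activity that is abundant in slow fibres and in adipocytes. Car4 is anchored to the outer face of the membrane, in capillary endothelium and on muscle fibres. Car14 spans the membrane with its catalytic domain outside the cell. A transcript that ends at the terminal site of such a gene carries the whole coding sequence, while one that ends in an early exon or intron does not.

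The sites on which the results turn were read from the mouse annotation (GENCODE M21, GRCm38), 5′ to 3′ on the strand of the gene. The first 3 lines are the bases before the terminal site of each gene, and the capitals mark a polyadenylation signal. The fourth is the window before the intron 2 site of Car14 described below, with its signal in capitals.
Car3 terminal site: gcattgatcacagaaacAATAAAagacaga
Car4 terminal site: gaAATAAAatatggatatgtttttagaaaa
Car14 terminal site: atgtttggaaATTAAAagtttttgatctta
Car14 intron 2 site: gctgtaatcATTAAAtcccacatctcctga
These 30-base windows lie at chr3:14872494-14872523 on the plus strand, chr11:84966014-84966043 on the plus strand, chr3:95897769-95897798 on the minus strand and chr3:95901906-95901935 on the minus strand. The Car3 window stops at the annotated end of the transcript, because the Car3 terminal site (position 14872536) lies 13 bases beyond it. AATAAA was found on the gene strand in 31.3% of 19925 windows of the same length before annotated sense sites, and in 42.4% of 12912 terminal ones. The variant ATTAAA was found in 10.6% and 14.1%.
The bases before the 2 exonic Car3 sites with the most internal reads in the AMPKα2 libraries held neither signal. Terminal windows held each signal more often than all windows did, so windows of internal sites held them less often. Lacking both was thus the common case. The bases are printed to show what lies before the listed position of the Car3 sites in exon 1 and exon 2. Each site is a cluster of ends, 167 bases wide at exon 1, 312 at exon 2 and 1339 at the terminal site. A window before the listed position thus need not lie before every end. Of the exon 1 cluster, 68 bases lie in exons.
Car3 exon 1 site: agagcaggagctgtccagcgctgagaaaca
Car3 exon 2 site: tctgctaagaccatcctgaacaatgggaag
Their windows are chr3:14863530-14863559 and chr3:14864378-14864407. One intronic Car3 site stood before a run of adenines, printed here in capitals from the base after the site.
Car3 after intron 2 site: AAAAAAAAAAAAAAAAAAAAAAAAcaagca
This window, chr3:14865237-14865266, held 27 adenines in its 30 bases, with 24 of them in a row. Of 5502 internal sites with readable bases downstream, 23.8% were A-rich, by the study's rule of at least 7 adenines in a row or 8 within 10 bases. Genomic adenines can serve as a priming site for oligo(dT), and whether the reads at this site arose in that way was not tested.

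The 8 libraries held 2311242 to 3549156 reads each. Reads at sites with no gene made up 1.88% to 2.85% of each AMPKα1 library and 15.3% to 17.9% of each AMPKα2 library. Of the 8 skeletal muscle markers, 7 had a site and none of these was at 0 in any library. The targeted genes were not used to check the labels, since a read at a 3′ end beyond the deleted part of a gene says nothing of it, and the 2 Prkaa1 and 7 Prkaa2 sites were not placed against the deletions. Prkaa1 had 0 and 82 reads in AMPKα1 KO against 15 and 0 in WT, and Prkaa2 had 40 and 71 in AMPKα2 KO against 87 and 62 in WT (log2 fold change −0.03 ± 0.28, edgeR adjusted p = 0.987). By the study's methods the 2 libraries of a group are from separate mice, so each SD is a spread over 2 mice. The ± after a log2 fold change is instead an approximate standard error (SE), the fold change divided by the root of the edgeR F statistic. The variance in that fit borrows from all features tested.

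Car3 was by far the most abundant of the 3 genes. It ranked 19 of 15349 genes by reads, with 123140 over the 8 libraries, against 341 for Car14 and 296 for Car4. Reads were not divided by transcript length, because each read marks an end. The AMPKα1 KO libraries held 28925 and 21629 Car3 reads and the AMPKα1 WT libraries held 14956 and 39307. As a share of reads with a gene, these were 0.868% and 0.679% in KO and 0.659% and 1.18% in WT. The AMPKα2 KO libraries held 3763 and 4306 reads and the AMPKα2 WT libraries held 6641 and 3613, or 0.178% and 0.196% in KO and 0.224% and 0.172% in WT. KO and WT overlapped in both models.

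In counts-per-million (CPM) of reads with a gene, scaled within each model by the trimmed mean of M-values (TMM), Car3 stood at 7103 ± 1597 CPM (SD, n = 2) in AMPKα1 KO and 9783 ± 2281 in WT. The fitted log2 fold change of KO over WT was −0.46 ± 0.34 (SE). In the AMPKα2 model it stood at 2050 ± 491 in KO and 1830 ± 168 in WT, a log2 fold change of 0.16 ± 0.29. The AMPKα2 value turned to −0.08 when library totals replaced TMM and to −0.10 without AMPKα2 KO replicate 1. The difference between the 2 models in the KO effect was 0.60 ± 0.49 on the log2 scale.

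Whether Car3 was higher in one model depended on the scaling. In CPM by library totals, the 4 AMPKα1 libraries lay between 6595 and 11764 and the 4 AMPKα2 libraries between 1715 and 2240, a ratio of means of 4.39 with no overlap. With TMM factors over all 8 libraries, the ranges were 3173 to 6044 and 3191 to 4431, which overlap, and the ratio fell to 1.25. Levels were therefore not compared between models.

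Reads of Car3 ended almost wholly at the terminal site in the AMPKα1 model. AMPKα1 KO showed terminal shares of 99.3% and 99.8%, AMPKα1 WT of 99.2% and 99.3%, and all 4 Wilson intervals at 95% lay between 99.0% and 99.8%. In the AMPKα2 model it was 89.4% (88.4% to 90.3%) and 92.8% (92.0% to 93.5%) in KO, and 96.2% (95.7% to 96.6%) and 96.5% (95.8% to 97.0%) in WT. Both AMPKα2 KO libraries thus lay below both WT libraries, with a KO minus WT difference of −5.24 percentage points. All 4 lay below the 4 AMPKα1 libraries, and how many other genes showed this order between models was not counted. The means were 99.5 ± 0.324% and 99.3 ± 0.0846% (SD, n = 2) in AMPKα1 KO and WT and 91.1 ± 2.41% and 96.3 ± 0.208% in AMPKα2 KO and WT. The intervals are taken within each library, so they cover counting error of reads and no spread between mice. The reads carry no molecular identifiers, so copies of a molecule count as separate reads and the intervals may be too narrow.

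Among genes with a terminal and an internal site and at least 100 reads in all 4 AMPKα2 libraries, 159 of 538 (29.6%) had both KO libraries below both WT libraries. The median gene differed by −1.50 points and 23.4% of genes had a more negative difference than Car3. In each library by itself, 561 to 2815 genes had both kinds of site and at least 100 reads. The median terminal share over those genes was 75.5% to 93.1% in the AMPKα1 libraries and 71.4% to 81.3% in the AMPKα2 libraries, which overlap. The pooled share was taken over all 5129 genes with both kinds of site, with no read limit. It was 75% to 84.2% against 39.5% to 51.0%, which do not overlap. Of the genes with at least 100 reads, 20.4% to 30.1% had a higher terminal share than Car3. An exact permutation test of 2 against 2 libraries cannot give a two-sided p under 0.333.

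**Figure D1:**
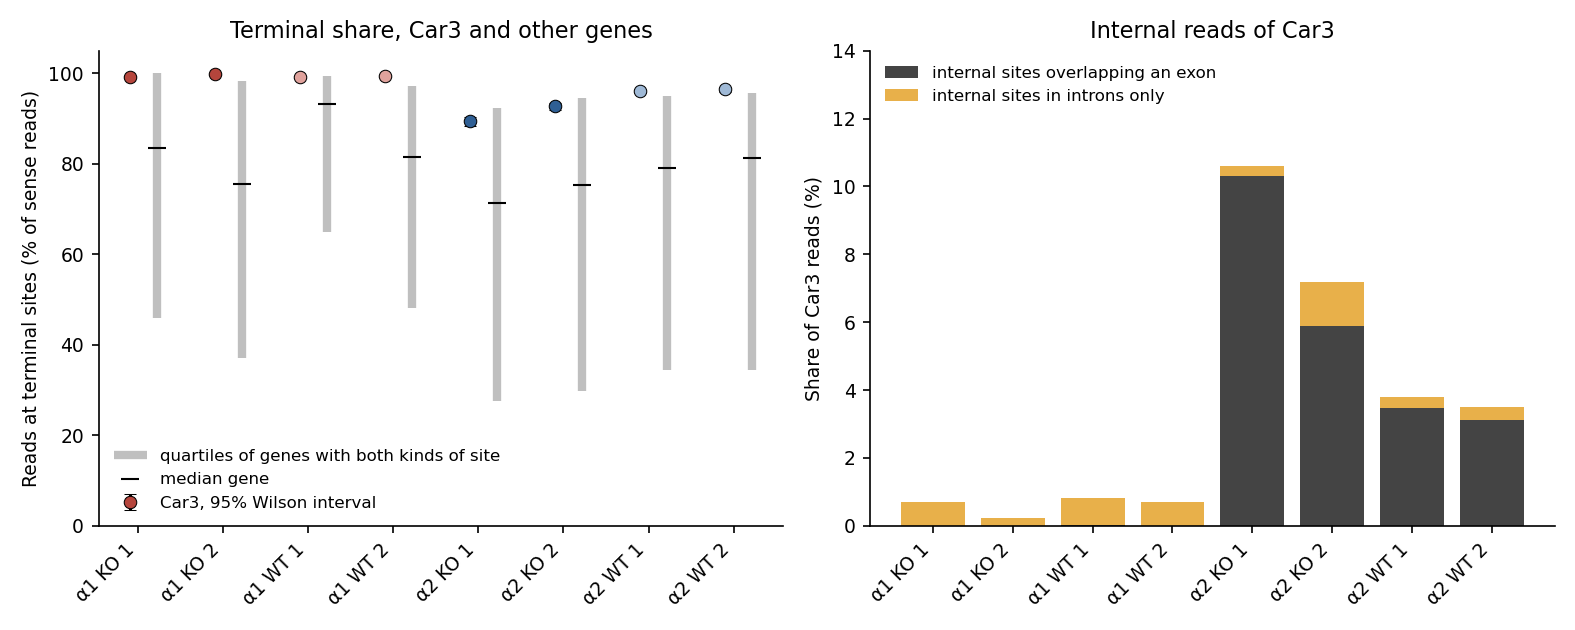
Left, share of sense reads at the terminal site (%) in each library, for Car3 (points, 95% Wilson intervals) and for genes with both kinds of site (dash, median; grey bar, quartiles). Right, reads at internal Car3 sites as a share of Car3 reads (%), split into sites that overlap an exon (dark) and sites in introns only (yellow): the dark part reaches 10.3% in AMPKα2 KO replicate 1 and is at or near 0 in every AMPKα1 library.

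The internal reads of Car3 came mostly from different sites in the 2 models. Car3 had 11 internal sites, 6 that overlap an exon and 5 that lie in introns only. At the exonic ones, the AMPKα1 KO libraries had 0 and 0 reads and the WT libraries had 2 and 0, although these libraries held most of the Car3 reads. The AMPKα2 KO libraries had 388 and 253 and the WT libraries had 231 and 113. The exonic sites made up 10.3% and 5.88% of Car3 reads in AMPKα2 KO and 3.48% and 3.13% in WT, and at most 0.0134% in any AMPKα1 library. A count of 0 in 21629 reads allows a share of up to 0.0178% by the Wilson interval.

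Sites in introns only had reads in all 8 libraries. They made up 0.698% and 0.24% of Car3 reads in AMPKα1 KO, 0.796% and 0.689% in AMPKα1 WT, 0.292% and 1.32% in AMPKα2 KO and 0.331% and 0.387% in AMPKα2 WT. KO and WT overlapped in both models. Both AMPKα2 WT libraries lay below both AMPKα1 WT libraries, an order that was not counted over other genes. Of the 12 Car3 sites, 5 (41.7%) had no read in any AMPKα1 library and at least 16 reads in the AMPKα2 libraries. This held for 12.6% of all sites and 15.1% of the internal sense sites of protein-coding genes. Each site needed 16 reads over the 8 libraries, so these 5 are listed only through their AMPKα2 reads. Their absence from AMPKα1 is therefore a description and no support for a difference. These 5 overlap exons 2 to 6, 1 site each. Over all protein-coding genes, sites that overlap an exon held 50.4% to 64.3% of internal reads in the AMPKα1 libraries and 47.1% to 59.6% in the AMPKα2 libraries, while for Car3 they held 0.0% to 1.65% and 81.6% to 97.2%. Library set, age and strain cannot be told apart as sources of this difference.

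**Figure D2:**
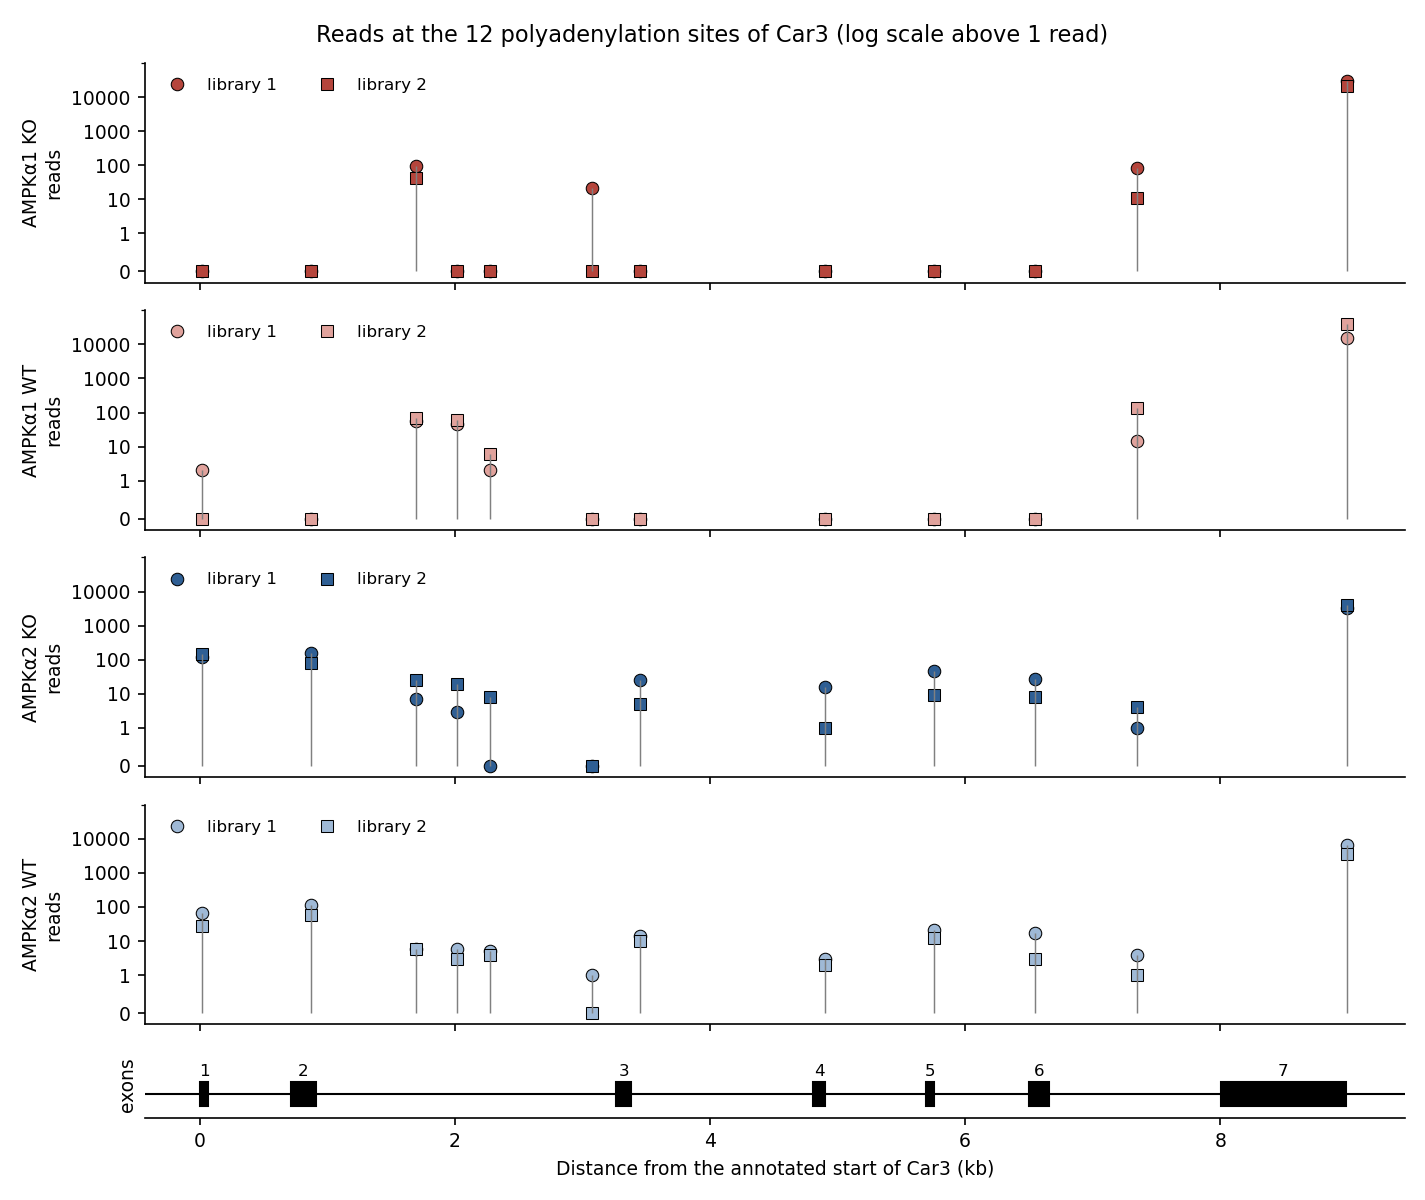
Reads at each of the 12 Car3 sites against distance from the annotated start (kb), with 1 panel for each group and 1 symbol for each library, on a log axis above 1 read, and the 7 exons drawn as boxes. The AMPKα2 libraries show reads at every exon, whereas the AMPKα1 libraries show reads in introns 2 and 6 and at the terminal site, besides 2 reads at exon 1.

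The exon 1 site was the exonic site at which both AMPKα2 KO libraries stood above both WT libraries, an order that 23.6% of the 23218 sites tested in that model showed. It lies 21 bases from the annotated start (position 14863559) and had 119 and 148 reads in AMPKα2 KO and 65 and 27 in WT. Its CPM values were 75.8 and 58.5 in KO against 19.1 and 12.8 in WT, a log2 fold change of 1.92 ± 0.38 (SE). A rise in these KO mice at a site extending from the same exon is among the study's own calls. The gene was picked on such calls, so this rise is not a separate finding. At the exon 2 site (position 14864407) the values were 97.5 and 32.4 CPM in KO and 32.6 and 28.0 in WT, which overlap. Over the 6 exonic sites, AMPKα2 KO replicate 1 stood above both WT libraries at 6, and AMPKα2 KO replicate 2 at 1. Over all sites tested, these libraries stood above both WT libraries at 43.4% and 39.4%. At the 5 exonic sites other than exon 1, only 1 of the 2 KO mice thus stood above WT. At the terminal site itself the log2 fold change was −0.06 ± 0.31.

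Intron 2 of Car3 held 4 sites with unlike patterns in the AMPKα1 model. The site at position 14865555 had 0 and 0 reads in AMPKα1 KO and 46 and 62 in AMPKα1 WT, at least 25.6-fold higher in WT when each KO library is set to a floor of 3 reads. Loss of a site of this intron in these KO mice is among the study's own calls. The gene was picked on such calls, so this loss is not a separate finding. The site at position 14865555 lies 5 bases past the annotated end of a Car3 transcript with a retained intron (position 14865550). In the AMPKα2 libraries it had 3 and 20 reads in KO against 6 and 3 in WT. The A-rich site at position 14865236, upstream of it, had 95 and 41 reads in AMPKα1 KO and 56 and 67 in WT, which overlap in CPM, so KO reads were present there. The site at position 14866612 had 22 reads in 1 AMPKα1 KO library and no more than 1 in any other. In intron 6, the site at position 14870889 had 85 and 11 reads in AMPKα1 KO and 15 and 136 in WT.

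Absence in KO of this kind was not rare. In the AMPKα1 model, 5.63% of 44024 sites tested had no read in either KO library and over 3 reads in both WT libraries, and 1.4% had the reverse. In the fits over all sites by edgeR's quasi-likelihood test at a Benjamini-Hochberg adjusted p of 0.1, 2 of 44024 sites (0.00454%) were called in the AMPKα1 model and 13 of 23218 (0.056%) in the AMPKα2 model, and none of these was a site of Car4 or Car14. Of the 12 Car3 sites, 5 passed the filter of 16 reads over the AMPKα1 libraries and 10 over the AMPKα2 libraries.

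Car4, the membrane-anchored enzyme, was read at 1 site, in its last exon and 1 base short of the annotated end (chromosome 11, position 84966043). All of its reads were therefore terminal. It had 183 and 48 reads in AMPKα1 KO and 16 and 40 in AMPKα1 WT. In CPM these were 52.1 and 13.3 in KO and 8.74 and 11.6 in WT, so that both KO libraries stood above both WT libraries, as they did for 13.6% of 13924 genes. The means were 32.7 ± 27.5 (SD, n = 2) in KO and 10.2 ± 2.02 in WT, and the log2 fold change of 1.68 ± 1.02 did not pass (edgeR, adjusted p = 0.763). AMPKα1 KO replicate 1 carried the difference, since without it the value was 0.37.

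In the AMPKα2 libraries Car4 had 2 and 3 reads in KO against 1 and 3 in WT. All 4 lie at or under the floor of 3 reads, so no fold change is given and a difference was not detectable at this depth. The 4 AMPKα1 libraries held 16 to 183 Car4 reads, and no fold is given between models. Capillary endothelium is a known source of Car4, so its markers are set beside it. Of 9 endothelial markers, 8 had a site and none of these was at 0. Their sum was 381 to 595 CPM in the AMPKα1 libraries and 72.6 to 83.9 in the AMPKα2 libraries with TMM within each model, but 202 to 328 against 134 to 156 with TMM over the 8 libraries, so the size of the gap depended on the scaling. In bulk muscle, fewer cells of a type and less RNA per cell cannot be told apart. Within the AMPKα1 model, the endothelial sum was highest in KO replicate 1 at 595, as Car4 was, and lowest in KO replicate 2 at 381, and its part in the Car4 values was not tested.

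Car14, the transmembrane enzyme, had 5 sites that together held 20 and 173 reads in AMPKα1 KO, 57 and 29 in AMPKα1 WT, 9 and 28 in AMPKα2 KO and 16 and 9 in AMPKα2 WT. In CPM it stood at 26.7 ± 29.8 (SD, n = 2) in AMPKα1 KO and 19.8 ± 16.1 in WT, with overlap, and the log2 fold change was 0.44 ± 1.23 (edgeR, adjusted p = 0.999). This value turned to −1.79 without AMPKα1 KO replicate 2 and to −0.18 without AMPKα1 WT replicate 2. In the AMPKα2 model it stood at 8.40 ± 3.77 in KO and 4.48 ± 0.305 in WT, and both KO libraries lay above both WT libraries, as for 18.7% of 10536 genes. The log2 fold change was 0.94 ± 0.49 (edgeR, adjusted p = 0.638), and it was 0.34 without AMPKα2 KO replicate 2.

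In the fits over all genes, 0 of 13924 genes (0.0%) were called in the AMPKα1 model and 51 of 10536 (0.484%) in the AMPKα2 model. Car14, tested in both models, and Car4, tested in the AMPKα1 model alone, were not called by edgeR or DESeq2 and had no unadjusted p under 0.05. An unadjusted p under 0.05 was given by edgeR to 589 of 13924 genes in the AMPKα1 model and 889 of 10536 in the AMPKα2 model. DESeq2 called 115 genes in the AMPKα1 model. The difference between models in the KO effect was called for 9 of 15349 genes (0.0586%). For Car14 that difference was 0.48 ± 1.43 on the log2 scale (edgeR, adjusted p = 1.0).

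**Figure D3:**
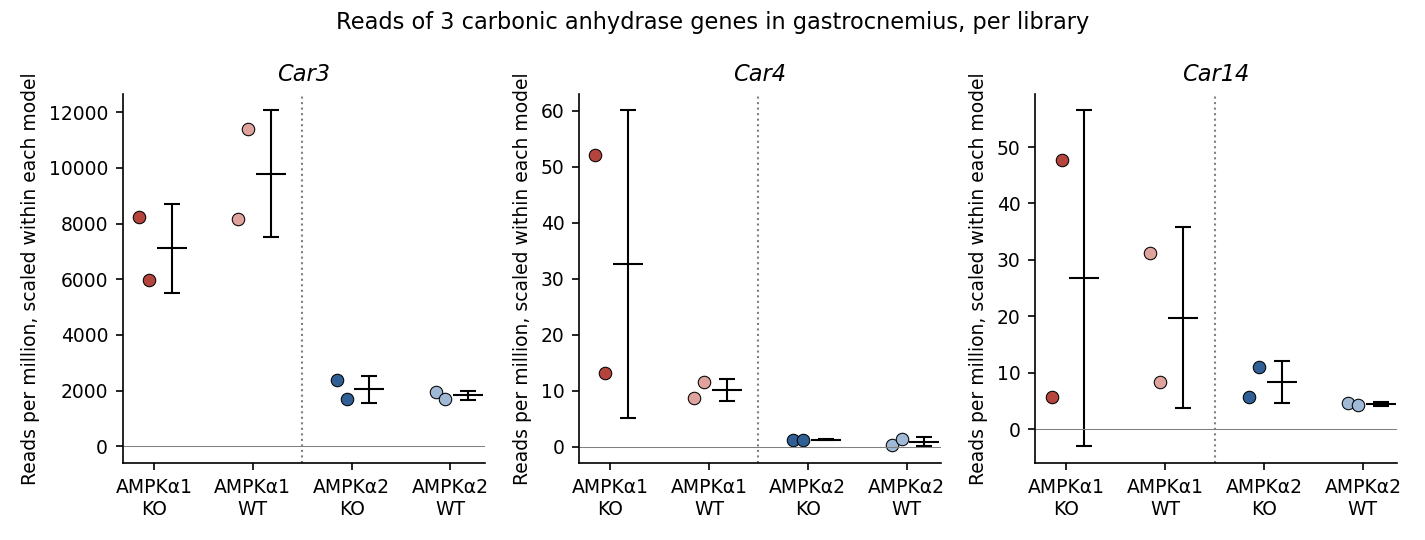
CPM of Car3, Car4 and Car14 in each library (points), scaled by TMM within each model, with the mean and SD of each group (dash and bars). KO and WT overlap for Car3 in both models, and the high points of Car4 and Car14 in AMPKα1 KO come from different mice.

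The reads of Car14 were spread over its sites in a way that changed from mouse to mouse. Its terminal site, in exon 11 and 1 base short of the annotated end (position 95897769), had 19 and 79 reads in AMPKα1 KO and 30 and 0 in AMPKα1 WT. It had 1 and 6 reads in AMPKα2 KO and 2 and 0 in WT. The terminal share of sense reads was all of 19 reads and 66.4% in AMPKα1 KO and 60.0% and 0.0% in WT, where the 0 of 29 reads allows a share of up to 11.7%. In the AMPKα2 libraries it was 12.5% and 22.2% in KO and 15.4% and 0.0% in WT, on 8 to 27 reads each. Few reads stand behind these shares, and the AMPKα2 intervals reach from 0.0% to 47.1%.

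The intron 2 site of Car14 (position 95901906), whose window with ATTAAA is printed above, had 0 and 0 reads in AMPKα1 KO and 20 and 27 in AMPKα1 WT. WT was at least 11.1-fold higher at the floor of 3 reads. The fit over all sites did not call it (edgeR, adjusted p = 0.543, with a range of 0.139 to 0.966 over the alternatives). It lies 12 bases before the annotated end of a Car14 transcript with a retained intron (position 95901894), as the intron 2 site of Car3 lies next to the end of another. In the AMPKα2 libraries it had 2 and 4 reads in KO against 1 and 2 in WT, near the floor.

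Exon 1 of Car14 held 2 sites, of which one (position 95904564) had 39 reads in AMPKα1 KO replicate 2 and 0 in the other AMPKα1 libraries. The second (position 95904482) had 4 and 16 reads in AMPKα2 KO and 6 and 5 in WT (log2 fold change 1.05 ± 0.73, edgeR adjusted p = 0.74), and 0 to 2 reads in the AMPKα1 libraries. The other site lay on the opposite strand to Car14 (position 95898789). It held 54 of the 173 reads of AMPKα1 KO replicate 2 and 0 to 7 in the others. Of the 5 sites, 4 passed the filter for AMPKα1 and 1 for AMPKα2. No site of Car4 or Car14 was called by edgeR or had an unadjusted p under 0.05, and DESeq2 called none. However, DESeq2 gave no adjusted p in the AMPKα1 model at positions 95904564, 95901906 and 95898789, nor in the AMPKα2 model at 95904482. Those sites could therefore not be called by DESeq2.

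**Figure D4:**
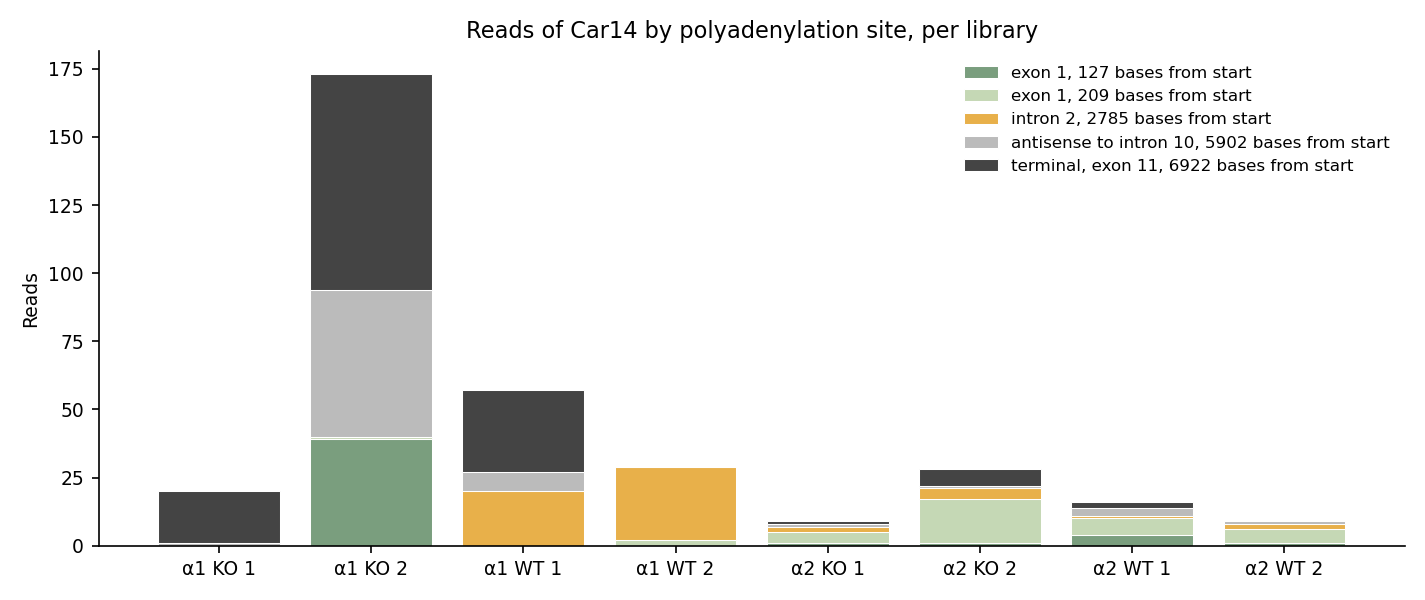
Reads of Car14 in each library, stacked by site, with the distance of each site from the annotated start in bases. The intron 2 part (yellow) is present in both AMPKα1 WT libraries and absent from both AMPKα1 KO libraries, and AMPKα1 KO replicate 2 holds most of the antisense reads.

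Of the 12 other carbonic anhydrases, 7 had a site, and all held far fewer reads than Car3. The most reads fell on Car10, a member of the family without catalytic activity, with 525 over the 8 libraries, but its 3 sites lie on the opposite strand to the gene, as does the 1 site of Car12. Car5b, a mitochondrial enzyme, had 93 and 143 reads in AMPKα1 KO and 9 and 54 in AMPKα1 WT, and 1 and 1 in AMPKα2 KO and 7 and 7 in AMPKα2 WT. In CPM, both KO libraries lay above both WT libraries in the AMPKα1 model (log2 fold change 1.66 ± 0.97, edgeR adjusted p = 0.763) and below both in the AMPKα2 model (−2.29 ± 0.93, adjusted p = 0.544), an order that 20.5% of genes showed there. Car7, a cytosolic enzyme, had 4 and 53 reads in AMPKα1 KO, 14 and 22 in WT, and no more than 3 in any AMPKα2 library. None of the 6 tested in the AMPKα1 model or the 4 tested in the AMPKα2 model was called by edgeR or by DESeq2. At an unadjusted p under 0.05 there were 0 and 2, the latter Car5b and Car12, beside 589 of 13924 and 889 of 10536 over all genes.

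Bicarbonate, proton and lactate carriers, which work beside carbonic anhydrases at the muscle membrane, were tested for 11 of 14 listed genes in the AMPKα1 model, 8 in the other. None was called by edgeR or DESeq2 within a model, and 1 (Aqp1) and 0 had an unadjusted p under 0.05. Aqp1, a water channel, had 15 and 7 reads in AMPKα1 KO, 56 and 169 in AMPKα1 WT, 69 and 161 in AMPKα2 KO, and 131 and 86 in AMPKα2 WT. Its log2 fold change was −3.67 ± 1.01 in the AMPKα1 model (edgeR, adjusted p = 0.763) beside 0.45 ± 0.28 for AMPKα2 (adjusted p = 0.698). The difference between these effects, 4.09 ± 0.70, was called by DESeq2 (adjusted p = 0.0014) and not by edgeR (adjusted p = 0.138). The median log2 fold change of the list was −0.20 and −0.01, beside −0.03 and −0.01 over all genes tested. Bsg, the partner protein of the lactate carriers, had 3009 and 2682 reads in AMPKα1 KO and 1184 and 4107 in WT (log2 fold change −0.20 ± 0.42). Slc16a3, the lactate exporter of fast fibres, had a log2 fold change of −0.97 ± 0.61 in the AMPKα1 model, beside −0.30 ± 0.23 for AMPKα2. Slc16a1, a lactate carrier of oxidative fibres, had −0.33 ± 0.73 and −0.49 ± 0.53, and Slc4a4, a sodium bicarbonate cotransporter, had 0.57 ± 0.59 and −0.42 ± 0.38. Each value of these 4 genes lay within 2 standard errors of 0.

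Since Car3 is known as a gene of slow fibres, its values are set beside slow fibre genes. All 9 were tested in both models and none was called by edgeR. An unadjusted p under 0.05 was given to 2 and 7 of them, beside 589 of 13924 and 889 of 10536 over all genes. DESeq2 called 1 (Myh7) and 2 (Myh7 and Tnnt1), beside 115 and 74 over all genes. Their median log2 fold change was 0.65 for AMPKα1 and 1.04 for AMPKα2, beside −0.46 and 0.16 for Car3. The summed level of the list was 6449 and 2688 CPM in AMPKα1 KO and 2401 and 1929 in WT, so AMPKα1 KO replicate 1 stood apart, and without it the AMPKα1 median was −0.17 with 2 of 9 above 0. It was 0.35 to 1.27 without one of the other AMPKα1 libraries, and the AMPKα2 median was 0.75 to 1.48 with 1 library left out. In the AMPKα2 model the sums were 2714 and 2773 in KO and 845 and 1768 in WT. Above 0 stood 7 of 9 and 9 of 9 with all libraries, beside 48.9% and 49.4% of all genes. Myh7, the slow myosin heavy chain, had 8421 and 5128 reads in AMPKα1 KO and 1220 and 2273 in WT (log2 fold change 1.52 ± 0.39). In the AMPKα2 model Myh7 had 1607 and 2474 in KO and 862 and 1136 in WT (1.34 ± 0.35). Tpm3, a slow tropomyosin, had 1.55 ± 0.54 and 1.18 ± 0.32, and Myl2, a slow regulatory light chain, had 0.83 ± 0.56 and 1.02 ± 0.36. Myl3 had 0.60 ± 0.69 and 0.42 ± 0.34.

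The fast fibre genes had a median log2 fold change of −0.81 in the AMPKα1 model, with 0 of 11 above 0, and of 0.14 in the AMPKα2 model, with 7 of 11 above 0. None was called by edgeR, and DESeq2 called 1 (Mylpf) and 0. An unadjusted p under 0.05 was given to 4 and 2 of the 11, beside 589 of 13924 and 889 of 10536 over all genes. Car3 in the AMPKα1 model, at −0.46, stood near Myl1 (−0.52 ± 0.29), Pvalb (−0.54 ± 0.28) and Myh4 (−0.57 ± 0.26), with Tnnc2 lower (−0.81 ± 0.51). In the AMPKα2 model, at 0.16, it stood between Myl1 (−0.06 ± 0.30) and Myh4 (0.30 ± 0.35), with Pvalb (−0.23 ± 0.34) and Tnnc2 (−0.26 ± 0.33) lower. The fast fibre median ran from −0.96 to −0.45 and from −0.03 to 0.34 in the respective models with 1 library left out. These values all rest on the same libraries.

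**Figure D5:**
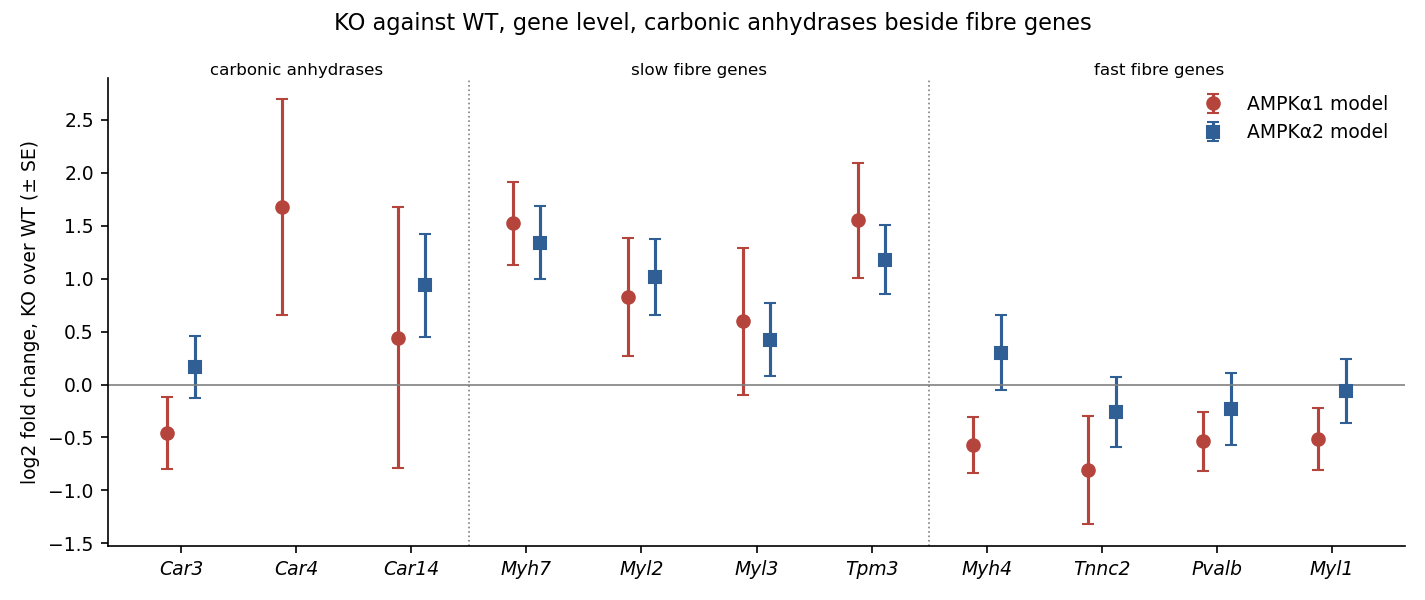
Log2 fold change of KO over WT (± SE) at gene level in the AMPKα1 (circles) and AMPKα2 (squares) models for the carbonic anhydrases and the 4 slow and 4 fast fibre genes with the most reads. Car4 has no AMPKα2 value, and no gene shown was called by edgeR.

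Adipocytes also make Car3, and their markers differed between mice. Of 10 adipocyte markers 9 had a site, and their sum was 638 and 2508 CPM in AMPKα1 KO and 909 and 588 in WT, and 331 and 196 in AMPKα2 KO and 599 and 264 in WT. The median log2 fold change of those tested was 1.14 in the AMPKα1 model, with 9 of 9 above 0, and −0.56 for AMPKα2, with 2 of 8 above 0. Without AMPKα1 KO replicate 2 the first was −0.24 with 4 of 8 above 0, and without AMPKα2 WT replicate 1 the second was 0.01 with 4 of 8, while leaving out one of the others gave 0.97 to 2.52 and −0.81 to −0.15. The defining marker Adrb3 was at 0 in 4 libraries. AMPKα1 KO replicate 2, with the highest adipocyte sum, had the lowest Car3 level of its model at 5974 CPM, while AMPKα2 WT replicate 1, the highest of the other, stood second for Car3 at 1949. None of the 9 or 8 adipocyte markers tested was called by edgeR or DESeq2, and 1 and 0 had an unadjusted p under 0.05. Their part in the Car3 values was not tested. With TMM within each model, Schwann cell markers summed to 519 to 1392 CPM in the AMPKα1 libraries and 80.1 to 246 in the AMPKα2 libraries. Macrophage markers summed to 65.0 to 149 and 85.0 to 139, and erythroid markers to 486 to 1185 and 750 to 1489. With TMM over the 8 libraries, Schwann cell markers summed to 276 to 738 and 149 to 453. Macrophage markers then summed to 34.4 to 79.2 and 161 to 256, and erythroid markers to 267 to 626 and 1383 to 2752. How the models compared thus depended on the scaling. None of these markers, nor of the endothelial ones, was called by edgeR or DESeq2, and each list had at most 1 gene at an unadjusted p under 0.05 in a model.

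The genes most like each member over the 8 libraries were found by the root mean square difference of log2(CPM + 1) profiles, each centred on its own mean, among 9962 genes with at least 100 reads. For Car3 they were Aff1 (0.0811), Cap2 (0.116) and Pepd (0.132), beside a median of 0.875 over all genes. Car4 was closest to Appbp2 (0.278), Dcdc2a (0.316) and Cry2 (0.324), beside a median of 1.34. Car14 was closest to Kcnj12 (0.302), Zkscan17 (0.342) and Stk39 (0.415), beside a median of 1.23. The difference between the 2 models weighs heavily in these profiles. With TMM over the 8 libraries, a scaling chosen after seeing the data, Aff1, Appbp2 and Kcnj12 stayed first, while the others ranked 2 to 37.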

How the data were processed

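The authors mapped Ion Torrent reads with TMAP, merged 3′ ends into APSs and assigned genes with Cuffcompare. The build was GRCm38.p5 per the labels. The deposited values are raw read counts per APS and library, and each of the 56483 APSs holds at least 16 reads in all. Here counts were summed per gene, leaving out APSs with no gene. Features with at least 16 reads over the libraries in the fit were tested with edgeR 4.0.16 (quasi-likelihood, TMM, Benjamini-Hochberg, called under 0.1) in R 4.3.3, each model separately, and checked on simulated counts. A second fit over all libraries tested the interaction. DESeq2 1.42.0, library totals, no filter, a replicate block, sense sites and leaving out each library were alternatives, the last with the lone library of a group assumed to vary like the other group. List medians without a library and marker sums with TMM over 8 libraries were added after seeing the data. A terminal site lay in the last exon of the transcript ending farthest downstream or within 2 kb beyond, on its strand. Sites were read against GENCODE M21. CPM values of sites use the gene-level scaling. Intervals are Wilson at 95%, the floor is 3 reads per library, and both cover counting error of reads only.

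The genes named were the members, the 3 genes most like each, and of every other list the genes called and up to 4 with the most reads. The members and lists were chosen with earlier results of these data known. Replicates of a group differed beyond counting noise in 25.0% to 79.6% of genes.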

Additional observations from a re-analysis of the deposited data

Results flagged for a closer look

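Car5b stood higher in both AMPKα1 KO libraries than in both WT libraries and lower in both AMPKα2 KO libraries. These orders were shown by 13.6% and 20.5% of the genes tested in the respective models. The difference between the KO effects was −4.04 ± 1.45 on the log2 scale (edgeR unadjusted p = 0.0199, adjusted p = 0.605), so it did not pass. Myh4 and Tnnt3 had fold changes of the reverse signs. On the log2 scale these were −0.57 ± 0.26 and −1.53 ± 0.56 in the AMPKα1 model. In the AMPKα2 model they were 0.30 ± 0.35 and 0.15 ± 0.31, within 1 standard error of 0. Their differences between the KO effects were 0.85 and 1.65 on the log2 scale, and edgeR did not call them. That difference was above 0 for all 11 fast fibre genes, Myh4 and Tnnt3 among them. The Car3 site at position 14865555 had no read in the AMPKα1 KO libraries and at least 46 in each WT library, while in CPM both AMPKα2 KO libraries (1.91 and 7.91) lay above both WT libraries (1.76 and 1.42). This AMPKα2 order was shown by 23.6% of the 23218 sites tested. The difference between the models was not tested, and 3 of the 4 AMPKα2 libraries held 6 or fewer reads at the site. AMPKα2 KO replicate 1 held 3 reads, at the floor, against 6 in WT replicate 1, so it stood above that library only after scaling. Loss of a site in the intron that holds this one is among the study's own calls on this gene. The loss itself is therefore no separate finding, and what was flagged is the opposite order in the 2 models.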

How the results depend on the processing

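Neither Car4 nor Car14, nor a site of either, was called under any alternative run. For the Car14 sites to which DESeq2 gave no adjusted p, as named above, a call by DESeq2 was not possible. Library totals moved the median log2 fold change of all genes from −0.03 to 0.22 (AMPKα1) and from −0.01 to −0.19 (AMPKα2), and Car3 from −0.46 to −0.25 and from 0.16 to −0.08. The terminal share of Car3 was equal under every definition, because each takes the same site and no Car3 site is antisense. This equality is therefore no check of the share. With 1 library left out, the share of a group is that of its remaining library. These shares were 99.3% to 99.8% (AMPKα1 KO) and 99.2% to 99.3% (AMPKα1 WT). They were 89.4% to 92.8% (AMPKα2 KO) and 96.2% to 96.5% (AMPKα2 WT). Counts of calls were unstable and the cause was not tested. For genes in the AMPKα1 model, DESeq2 called 115 and the fit with all 8 libraries 97, against 0. For genes in the AMPKα2 model (51) there were 4 with all 8 libraries, 160 with library totals (43.1% higher in KO, against 52.9%) and 376 with no filter (65.4% higher), and DESeq2 called 74 (73.0% higher). Leaving out 1 library gave 26 to 89. For the interaction (9) there were 171 by DESeq2, 1 with library totals and 0 to 542 with 1 library left out, the most without AMPKα1 KO replicate 1 and 429 without AMPKα1 KO replicate 2. For sites in the AMPKα1 model (2) there were 214 by DESeq2, 1564 with all 8 libraries, 49 with library totals, 4 with no filter and 0 to 170 with 1 library left out, the most without AMPKα1 WT replicate 2. For sites in the AMPKα2 model (13) there were 96 by DESeq2 (84.4% higher), 2 with all 8 libraries, 45 with library totals, 557 with no filter (76.3% higher) and 0 to 76 with 1 library left out, the fewest without AMPKα2 WT replicate 2. With the replicate block, calls in the AMPKα2 model were 83 for genes and 520 for sites (71.0% higher), and 0 and 2 in the AMPKα1 model. The numbers do not pair the mice, as deviations of same-numbered libraries correlated at 0.032 and −0.007 over genes.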
